A study of Mus musculus with 7 samples.

Results

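The neurotrophin ligands *Bdnf*, *Ntf3* and *Ntf5*, the Trk receptors *Ntrk2* and *Ntrk3*, the pan-neurotrophin receptor *Ngfr* and the Vps10p-domain receptors *Sort1* and *Sorcs3* were followed in the forebrain of mice lacking the transcription factor *Lhx6*. They were chosen by name as a gene family, with earlier results of these data known, and all 8 were found by symbol among the 47729 genes of the count table. Of these, 7 were among the 19684 genes with enough reads to be tested, and *Ntf5* was not. RNA was sequenced from forebrain at postnatal day 15 in 4 control (*Lhx6*+/-) and 3 mutant (*Lhx6*-/-) samples, each a pool of 2 animals. The strain was F1(C57BL/6 X 129Sv), and the allele Lhx6tm2Vpa was carried on 1 chromosome by the controls and on both by the mutants. All controls therefore shared 1 mutant allele with the mutants, and no wild-type sample was compared. Replicates are pools, so every error given here is a spread between pools, and the sex recorded for a pool could not be tied to a column of the table.

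Neurotrophins are secreted proteins that are made as precursors, cleaved, and released from neurons and other cells. Mature BDNF and neurotrophin-4 (the product of *Ntf5*) act mainly on TrkB, encoded by *Ntrk2*, and neurotrophin-3 acts mainly on TrkC, encoded by *Ntrk3*. Precursor forms bind the receptor p75, encoded by *Ngfr*, together with sortilin, the product of *Sort1*, and sortilin also sorts the BDNF precursor inside the cell. In the cortex BDNF is made largely by excitatory neurons in response to activity and is known for its action on the maturation of inhibitory synapses and interneurons.

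Of the deleted gene, *Lhx6*, control libraries 2, 3, 10 and 11 carried 615.2, 522.2, 475.9 and 522.4 normalized counts, and 70.9, 76.6 and 70.1 were left in mutant libraries 5, 12 and 13, so the labels of all 7 libraries stood. A normalized count is the expected read count scaled by the library's effective size to the mean of the 7 libraries. Libraries held between 32556304 and 38069151 expected counts, and the 3 counts that a gene at 0 could still have corresponded to between 0.0797 and 0.0923 CPM (counts scaled to a common library size), a limit that covers counting error only. Libraries numbered 2, 3 and 5 stood apart from those numbered 10 to 13 on the first principal component (39.6% of the variance), while genotype separated along the second (23.4%). The labels do not say what the numbers stand for. Each run holds both genotypes, and values within each run are given beside the results below. Of all genes tested, 4.85% were called between the genotypes by edgeR's quasi-likelihood test (Benjamini-Hochberg adjusted p of at most 0.05), 2.97% as higher in mutants and 1.87% as lower.

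Of the 7 members tested, *Bdnf* and *Sorcs3* rose in mutant forebrains and none was called lower. The count of 0 lower members came from edgeR's quasi-likelihood test and was the same with limma-voom, which called 4.89% of all genes. At an unadjusted p-value under 0.05, a level that 18.2% of all genes passed, *Ntf3* and *Sort1* were lower and *Bdnf*, *Ngfr* and *Sorcs3* higher. DESeq2, which called 8.81% of all genes, called *Sort1* lower as well. Libraries of the genotypes did not overlap for 4 of the 7 members (*Bdnf*, *Ntrk2*, *Sort1* and *Sorcs3*), beside 19.7% of all genes tested. In RNA from forebrain tissue, fewer cells of a type and less RNA per cell cannot be told apart.

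**Figure D1:**
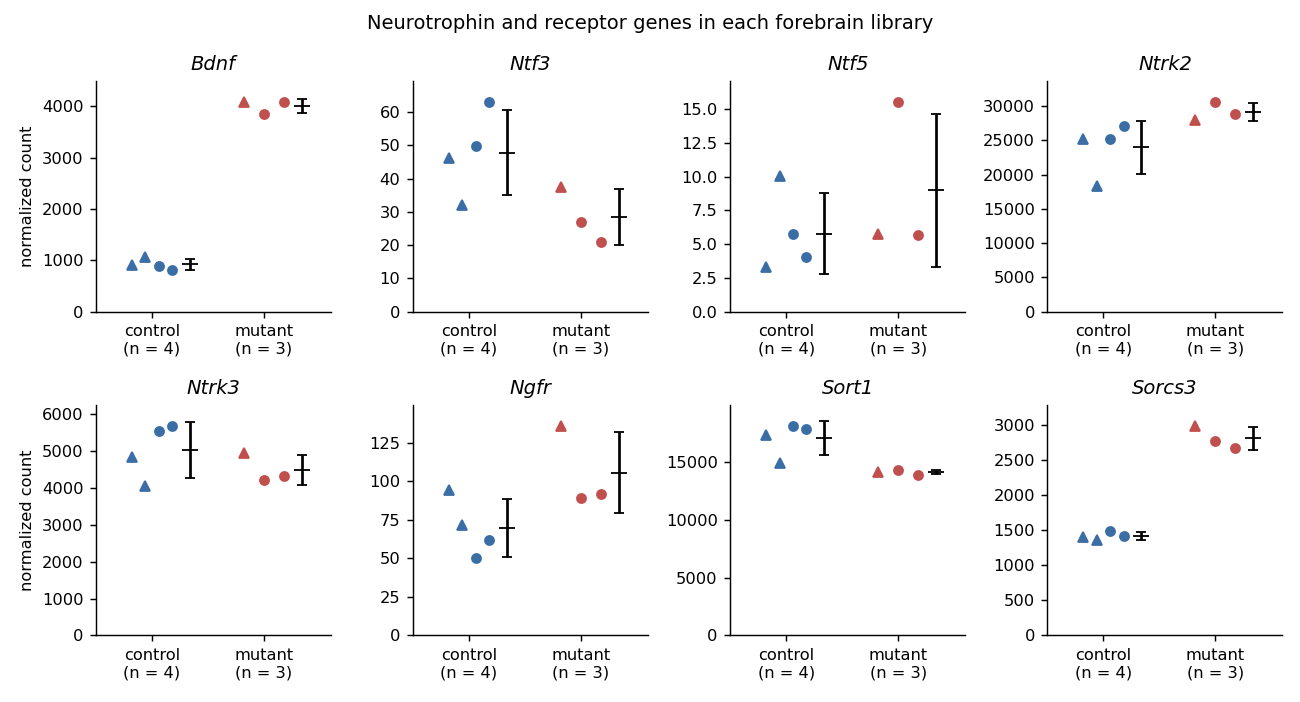
Normalized counts (y axis, linear, from 0) of the 8 genes in each forebrain library, for control (blue, n = 4 pools) and mutant (red, n = 3 pools). Triangles mark libraries 2, 3 and 5 and circles libraries 10 to 13, and bars give the mean and SD. All mutant libraries lie above all control libraries for *Bdnf*, *Ntrk2* and *Sorcs3* and below them for *Sort1*, while the genotypes overlap for *Ntf3*, *Ntf5*, *Ntrk3* and *Ngfr*.

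Among the ligands, *Bdnf* (ENSMUSG00000048482, chr2:109674700-109727007 on GRCm38, plus strand) showed the largest difference of the members tested. Control libraries 2, 3, 10 and 11 held 905.9, 1074.5, 892.3 and 810.0 normalized counts of it, against 4083.7, 3848.2 and 4086.7 for mutant libraries 5, 12 and 13. Every mutant library lay far above the highest control library, and the libraries of each genotype lay close together. The mean rose from 920.7 ± 111 (SD, n = 4 pools) to 4006 ± 137 (SD, n = 3 pools), a ratio of 4.35, and the log2 fold change was 2.12 ± 0.100 (SE, adjusted p = 5.99e-05, edgeR quasi-likelihood test). Within libraries 2, 3 and 5 it was 2.04 and within libraries 10 to 13 it was 2.23. The 95% interval of the log2 fold change, 1.89 to 2.35, held the value of each run.

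The deposited annotation gave *Bdnf* 11 transcripts with 9 separate start sites. In mouse, alternative first exons of *Bdnf* are spliced to a shared coding exon. Reads were counted per gene, so these values do not say from which start sites the added *Bdnf* transcripts came. RefSeq promoter windows on GRCm38.p6, each running from 250 bases before to 50 bases after a start site, existed for 7 *Bdnf* starts, of which 6 were equal to a start in the deposited annotation. They were searched on both strands for the cAMP response element half-site TGACG (on the opposite strand this reads CGTCA), which is bound by CREB-family factors, for the E-box CACGTG and for the AP-1 site TGACTCA. The half-site occurred in 20.8% of all 32851 promoter windows, the E-box in 7.15% and the AP-1 site in 5.20%. Among the 7 *Bdnf* windows, 1 held the half-site, and that window is printed because it is the one match to any of the 3 motifs at *Bdnf*. The window of *Sorcs3*, the other member that rose, is printed beside it and held none of the 3. Both windows lie on the plus strand and are written 5′ to 3′, with the match in capitals, and the *Bdnf* match covers positions -35 to -31 from the start site. A match describes the letters in the window and nothing about binding.
*Bdnf*, start at 109692436, chr2:109692186-109692485: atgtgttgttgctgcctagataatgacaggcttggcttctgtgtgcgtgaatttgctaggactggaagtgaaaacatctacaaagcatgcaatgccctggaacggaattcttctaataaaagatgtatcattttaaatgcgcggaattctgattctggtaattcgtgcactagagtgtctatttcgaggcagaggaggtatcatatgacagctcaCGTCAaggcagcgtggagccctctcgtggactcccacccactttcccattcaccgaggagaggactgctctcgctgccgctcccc
*Sorcs3*, start at 48206025, chr19:48205775-48206074: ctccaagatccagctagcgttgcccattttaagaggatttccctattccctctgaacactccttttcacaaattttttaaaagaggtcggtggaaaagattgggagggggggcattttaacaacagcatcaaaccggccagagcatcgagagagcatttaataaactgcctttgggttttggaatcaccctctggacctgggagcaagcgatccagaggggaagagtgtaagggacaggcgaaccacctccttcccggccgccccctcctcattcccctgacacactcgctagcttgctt

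*Ntf3*, which encodes neurotrophin-3 (ENSMUSG00000049107, chr6:126101412-126166910, minus strand), was rare in this tissue. It had 46.1, 32.1, 49.9 and 63.0 normalized counts in the control libraries, in the order above, and 37.4, 26.9 and 20.8 in the mutant libraries. Mutant library 5 was within the control range and the other two mutant libraries were below it. The log2 fold change was -0.75 ± 0.305 (SE, 95% interval -1.44 to -0.056, adjusted p = 0.237). It was -0.064 in libraries 2, 3 and 5 and -1.23 in libraries 10 to 13, and in those 4 libraries alone, where 10.3% of genes were called, *Ntf3* was called lower (adjusted p = 0.0304, edgeR). Of its 2 promoter windows, 1 (chr6:126166695-126166994) held the E-box.

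*Ntf5*, which encodes neurotrophin-4 (ENSMUSG00000074121, chr7:45413695-45417178, plus strand), lay below the minimum for testing of 10 counts in 3 libraries. The controls had 3.3, 10.0, 5.8 and 4.1 normalized counts and the mutants 5.7, 15.5 and 5.7. Its groups overlapped, and a difference was not detectable at this depth. *Bdnf* made up most of the 3 ligand messages when each was taken per length of exon, with 82.6 ± 4.49% in controls (SD, n = 4, 77.0% to 87.9%) and 96.8 ± 0.816% in mutants (SD, n = 3, 96.3% to 97.8%).

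The Trk receptors did not pass the test. *Ntrk2* (ENSMUSG00000055254, chr13:58806596-59133970, plus strand), whose TrkB protein is the receptor of BDNF, had 25152.8, 18273.7, 25244.5 and 27114.6 normalized counts in the control libraries and 27931.4, 30570.5 and 28784.8 in the mutant libraries. Every mutant library was above every control library, though by little, and control library 3 was far below the other controls. The log2 fold change was 0.28 ± 0.132 (SE, 95% interval -0.020 to 0.58, adjusted p = 0.310), and without control library 3 it was 0.17. It was 0.36 in libraries 2, 3 and 5 and 0.19 in libraries 10 to 13. A difference as large as that of *Bdnf* lay outside its interval. The deposited annotation held 2 transcripts of *Ntrk2*, and gene counts do not separate full-length TrkB, which carries the kinase, from truncated TrkB, which glia also make. *Gfap*, an astrocyte gene, moved in the same libraries (log2 fold change 1.95, adjusted p = 7.41e-05), and its part in the *Ntrk2* values was not tested. Over all 10 astrocyte markers examined, *Gfap* alone was called by edgeR without a covariate and by limma-voom, the median log2 fold change was 0.20, and their summed level was 6059 to 8713 CPM in controls and 9504 to 11099 CPM in mutants. DESeq2 and the run covariate also called *Aqp4* and *Gja1* higher, and libraries 10 to 13 alone *Aqp4*, *Gja1* and *Slc1a2*.

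*Ntrk3* (ENSMUSG00000059146, chr7:78175959-78738012, minus strand), whose product TrkC is the receptor of neurotrophin-3, had 4830.9, 4043.0, 5538.8 and 5685.6 normalized counts in the control libraries and 4955.4, 4200.1 and 4316.8 in the mutant libraries. The mutant libraries fell inside the control range. The log2 fold change was -0.16 ± 0.129 (SE, 95% interval -0.45 to 0.13, adjusted p = 0.591). The runs disagreed in direction, with 0.16 in libraries 2, 3 and 5 and -0.39 in libraries 10 to 13, where *Ntrk3* was called lower (adjusted p = 0.00692, edgeR). *Ntrk2* made up 91.2 ± 0.510% of the *Ntrk2* and *Ntrk3* messages per length in controls (SD, n = 4) and 93.4 ± 0.814% in mutants (SD, n = 3), with no overlap between the genotypes.

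*Ngfr* (ENSMUSG00000000120, chr11:95568818-95587735, minus strand), which encodes p75, was likewise rare. It had 94.3, 71.3, 49.9 and 62.0 normalized counts in the control libraries and 136.0, 89.0 and 91.8 in the mutant libraries. Mutant library 5 was above all others, and the other two mutant libraries were just below the highest control library. The log2 fold change was 0.61 ± 0.254 (SE, 95% interval 0.030 to 1.19, adjusted p = 0.248), and it was 0.40 without mutant library 5. Within libraries 2, 3 and 5 it was 0.72 and within libraries 10 to 13 it was 0.70. With a covariate for the 2 runs of library numbers, a fit that called 11.2% of all genes, *Ngfr* was called higher (log2 fold change 0.70, adjusted p = 0.0300, edgeR).

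*Ngfr* is known as a marker of basal forebrain cholinergic neurons. Of 7 markers examined for these neurons, *Ngfr* included, *Lhx8* alone was called by edgeR without a covariate (log2 fold change 1.38, adjusted p = 0.0370). All 7 had a positive log2 fold change, and the median, 0.61, was the value of *Ngfr* itself. Their summed level was 9.54 to 13.4 CPM in controls and 11.9 to 18.3 CPM in mutants. *Chat*, the enzyme that makes acetylcholine, had a log2 fold change of 0.085 (adjusted p = 0.947), and with the run covariate *Slc18a3* and *Ngfr* were called higher as well. In libraries 2, 3 and 5 *Chat* (-1.11), *Slc5a7* (-0.23) and *Isl1* (-0.17) were negative and the other markers positive. In libraries 10 to 13 *Chat* (0.56), *Slc5a7* (0.18) and *Isl1* (0.78) were positive. The part of these cells in the *Ngfr* values was not tested.

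The Vps10p-domain receptors differed among themselves. *Sorcs3* (ENSMUSG00000063434, chr19:48206025-48805505, plus strand), a neuronal receptor of this family, had 1401.6, 1361.7, 1483.3 and 1421.9 normalized counts in the control libraries and 2988.8, 2768.7 and 2671.1 in the mutant libraries. The control libraries were nearly equal and every mutant library was far above them. The mean rose from 1417 ± 50.7 (SD, n = 4 pools) to 2810 ± 163 (SD, n = 3 pools), a ratio of 1.98, with a log2 fold change of 0.99 ± 0.072 (SE, 95% interval 0.82 to 1.15, adjusted p = 0.000389, edgeR). It was 1.11 in libraries 2, 3 and 5 and 0.92 in libraries 10 to 13.

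*Sort1* (ENSMUSG00000068747, chr3:108284082-108361511, plus strand), which encodes sortilin, had 17336.6, 14888.5, 18143.8 and 17821.0 normalized counts in the control libraries and 14135.3, 14311.3 and 13917.1 in the mutant libraries. Every mutant library was below every control library, control library 3 being the nearest, and the mutant libraries were nearly equal. The log2 fold change was -0.27 ± 0.090 (SE, 95% interval -0.48 to -0.067), and it did not pass after adjustment over all genes (adjusted p = 0.148, edgeR). Without control library 3 it was -0.33 (adjusted p = 0.0294), and DESeq2 gave -0.27 (adjusted p = 0.0332), both past the threshold. It was -0.19 in libraries 2, 3 and 5 and -0.34 in libraries 10 to 13, where *Sort1* was called lower (adjusted p = 0.0162, edgeR), as it was with the run covariate (-0.28, adjusted p = 0.0465). An antisense gene, *Gm12523*, overlaps 4.47% of the exon bases of *Sort1*, and how strand entered the counting is not given in the sources used here.

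**Figure D2:**
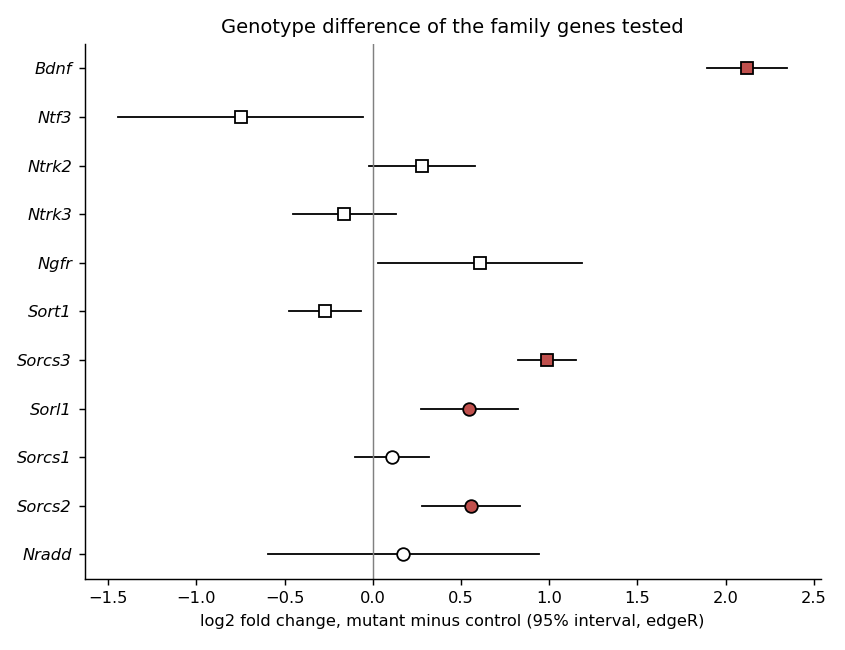
Log2 fold change, mutant minus control, with the 95% interval from edgeR's quasi-likelihood fit (x axis), for the 7 members tested (squares) and 4 other genes of the receptor families (circles). Filled symbols are called (adjusted p of at most 0.05): *Bdnf*, *Sorcs3*, *Sorl1* and *Sorcs2*, all to the right of 0.

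Among 4 other genes of the same receptor families, 2 rose and none was called lower (0 also at an unadjusted p-value under 0.05 and with DESeq2 or limma-voom). The sorting receptors *Sorl1* and *Sorcs2* rose with *Sorcs3*. *Sorl1* went from 13012 ± 1861 normalized counts (SD, n = 4) to 19023 ± 1241 (SD, n = 3), a log2 fold change of 0.55 ± 0.120 (SE, adjusted p = 0.0372, edgeR). *Sorcs2*, which encodes a co-receptor of p75, went from 2968 ± 441 (SD, n = 4) to 4364 ± 262 (SD, n = 3), a log2 fold change of 0.56 ± 0.123 (SE, adjusted p = 0.0388, edgeR). Both calls were lost on leaving out some single libraries, with adjusted p-values of up to 0.148 for *Sorl1* (without control library 2 or 10 or any mutant library) and 0.149 for *Sorcs2* (without any library other than control library 3). Taken by run, *Sorl1* differed by 0.64 (libraries 2, 3 and 5) and 0.44 (libraries 10 to 13) on the log2 scale, and *Sorcs2* by 0.58 and 0.50. *Sorcs1* (log2 fold change 0.11, adjusted p = 0.617) and the p75 homologue *Nradd* (0.17, adjusted p = 0.855) were not called.

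Compared per length of exon, as FPKM (CPM per kilobase of merged exon), *Sort1* and *Ntrk2* were the highest of the 11 family genes compared in controls, with 63.2 ± 5.48 and 48.7 ± 7.90 FPKM (SD, n = 4). *Sorl1* followed at 32.3 ± 4.61 FPKM. Below these came *Sorcs2* at 9.46 ± 1.40, *Sorcs3* at 7.06 ± 0.253, *Sorcs1* at 5.48 ± 0.404, *Ntrk3* at 4.67 ± 0.701 and *Bdnf* at 4.16 ± 0.501 FPKM. The rare messages *Ntf3* (0.782 ± 0.208), *Ngfr* (0.565 ± 0.153) and *Ntf5* (0.0828 ± 0.0432) were lowest. Neighbours in this order whose control libraries overlapped were *Ntrk2* with *Sorl1*, *Sorcs1* with *Ntrk3*, *Ntrk3* with *Bdnf* and *Ntf3* with *Ngfr*.

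In mutants *Bdnf* stood at 18.1 ± 0.618 FPKM (SD, n = 3), rank 4 of 11 against rank 8 in controls. It was then above *Sorcs3* (14.0 ± 0.810) and *Sorcs2* (13.9 ± 0.834), whose libraries overlapped each other, and below *Sorl1* (47.2 ± 3.08). *Ntrk2* (59.1 ± 2.74) and *Sort1* (52.4 ± 0.732) exchanged places at the top. With the longest transcript of each gene in place of all its exons, *Ntrk2* was first in both genotypes, at 78.7 and 95.6 FPKM beside 70.0 and 58.0 for *Sort1*, and *Bdnf* kept ranks 8 and 4, at 6.06 and 26.4 FPKM. The exons of *Ntrk3* merge to 30170 bases over 20 transcripts, which lowers its value by this measure.

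**Figure D3:**
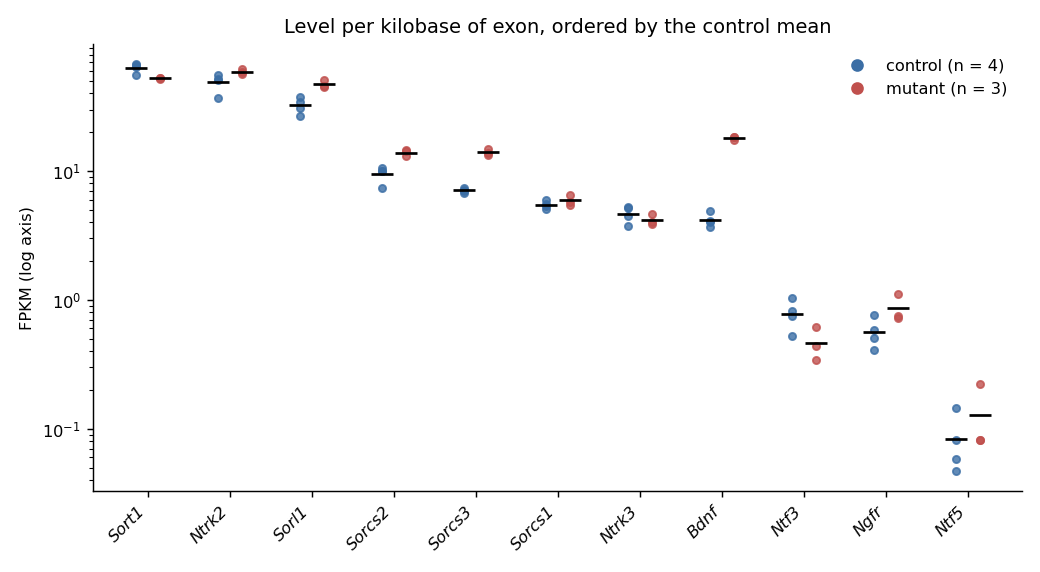
FPKM (y axis, log scale) of 11 neurotrophin, Trk, p75 and Vps10p-family genes in each control (blue, n = 4 pools) and mutant (red, n = 3 pools) library, ordered by the control mean, with a bar at each mean. *Bdnf* goes from 4.16 to 18.1 FPKM and passes *Sorcs2*, *Sorcs3*, *Sorcs1* and *Ntrk3*.

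Set against another member within each library, the messages shifted in proportion. These 3 ratios, of values per length, were chosen after the levels were seen and carry no test. There were 8.88 ± 2.85 *Bdnf* messages per 100 of *Ntrk2* in controls (SD, n = 4, 6.63 to 13.1) and 30.6 ± 2.38 in mutants (SD, n = 3, 28.0 to 32.5). *Ntrk2* per *Ntrk3* was 10.4 ± 0.689 in controls and 14.3 ± 1.81 in mutants. *Sorcs3* per 100 *Sort1* was 11.2 ± 0.725 in controls and 26.7 ± 1.46 in mutants. In none of the 3 did a control library reach the lowest mutant library. The levels given above already fix this for *Sorcs3* per *Sort1*, and the share of *Ntrk2* fixes it for *Ntrk2* per *Ntrk3*. *Bdnf* was already far apart between the genotypes, so the 3 separations restate earlier results. Of the 5 Vps10p-family genes, *Sort1* held 53.9 ± 1.34% of the summed FPKM in controls and 39.3 ± 0.936% in mutants, and *Sorcs3* 6.04 ± 0.474% and 10.5 ± 0.782%.

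Beyond the receptors, 81 genes of 5 pathway lists were read from the same fit, and 78 were tested. Of these, 8 rose and 1 fell, and the median log2 fold change was 0.020, beside -0.013 over all genes tested. The 9 called genes had the same direction within libraries 2, 3 and 5 as within libraries 10 to 13. They were selected on these same 7 libraries, so the shared direction is not a replication. The count of 8 was between 2 and 5 without any single library other than control library 3. The lists were written with earlier results of these data known, and their genes are therefore described without a test of the list.

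Neurotrophin precursors are cleaved by proprotein convertases and by plasmin, and BDNF is released from dense-core vesicles. Of 14 genes of these steps 11 were tested (*Plg*, *Mmp3* and *Mmp7* were too rare), 1 rose, none was called lower (0 at an unadjusted p-value under 0.05 as well, and 0 with DESeq2 or limma-voom) and the median log2 fold change was 0.17. The one that rose was *Cadps2*, a priming factor of dense-core vesicles linked to BDNF release, with 3621 ± 321 normalized counts in controls (SD, n = 4) and 4947 ± 576 in mutants (SD, n = 3), a log2 fold change of 0.45 ± 0.106 (SE, adjusted p = 0.0489, edgeR). That call was at the edge: it was lost without any one of the 7 libraries (adjusted p between 0.0577 and 0.200) and with limma-voom (0.0518). Of 19 alternatives, 8 kept it and 11 lost it. It was kept with DESeq2 (adjusted p = 0.00330), with the run covariate (0.00830, edgeR) and in libraries 10 to 13 alone (0.0102, edgeR). *Plat*, the tissue plasminogen activator, had 0.32 (adjusted p = 0.0629), past the threshold with DESeq2. With the run covariate, and again in libraries 10 to 13 alone, edgeR called *Plat* and *Pcsk6* higher as well as *Cadps2*. *Pcsk6* had 0.44 in the fit without a covariate (adjusted p = 0.137, edgeR). *Hap1*, which binds the BDNF precursor for transport, had the lowest, -0.24 (adjusted p = 0.456).

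None of the 37 adaptors and kinases downstream of Trk receptors was called in either direction by the edgeR fit without a covariate, and their median log2 fold change was -0.013. At an unadjusted p-value under 0.05, a level that 18.2% of all genes passed, 3 were higher and 4 lower. Limma-voom, which called 4.89% of all genes, called 0. DESeq2, which called 8.81% of all genes, called 1, *Mapk3*, as lower. With the run covariate edgeR called the adaptor *Gab2* higher and the kinases *Map2k1* and *Mapk3* lower, and in libraries 10 to 13 alone it called *Gab2* higher and *Map2k1* lower. *Mapk3*, which encodes the kinase ERK1, had 6480 to 7014 normalized counts in control libraries 2 and 3, 5157 to 5369 in control libraries 10 and 11 and 4340 to 4785 in the mutant libraries. Its log2 fold change was -0.42 ± 0.121 (SE, adjusted p = 0.0963), -0.64 in libraries 2, 3 and 5 and -0.19 in libraries 10 to 13. The highest of the list was the adaptor *Shc4* at 0.34 (adjusted p = 0.245).

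Of 16 co-receptors and signalling partners of p75, *Tnfrsf19* alone was called, by edgeR, DESeq2 and limma-voom. This member of the TNF receptor family can stand in for p75 in the Nogo receptor complex. It rose from 3825 ± 197 normalized counts (SD, n = 4) to 5074 ± 165 (SD, n = 3), a log2 fold change of 0.41 ± 0.0744 (SE, adjusted p = 0.0183, edgeR), and the call was lost without control library 10 or 11 or mutant library 12 or 13 (adjusted p between 0.0592 and 0.0942). The Nogo receptor *Rtn4r* itself had the lowest value of the list, -0.21 (adjusted p = 0.555), and the median was 0.014.

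Of 10 genes known to respond to BDNF in cultured neurons, 4 rose, 1 fell and the median log2 fold change was 0.26. Most of the called genes encode neuropeptides. *Vgf*, a secreted peptide precursor, rose from 10264 ± 1874 normalized counts (SD, n = 4) to 26099 ± 3737 (SD, n = 3), a log2 fold change of 1.35 (adjusted p = 0.00268, edgeR). *Npy*, neuropeptide Y, rose from 2421 ± 223 to 7818 ± 883 (log2 fold change 1.69, adjusted p = 0.000226). *Tac1*, the precursor of substance P, rose by less (0.83, adjusted p = 0.0333), as did *Dusp6*, a phosphatase that acts on ERK (0.60, adjusted p = 0.0196). *Sst*, somatostatin, fell from 5356 ± 874 to 588 ± 70.7 (-3.19, adjusted p = 6.37e-05), and it is also a marker of the interneurons that depend on *Lhx6*. Of the 10 markers examined for interneurons of the medial ganglionic eminence, that lineage, 6 fell and 1 rose (*Tac1*). The 6 include *Sst* and the deleted gene *Lhx6*. The median log2 fold change of the 10 was -0.74. Their summed level was 670 to 733 CPM in controls and 376 to 429 CPM in mutants, and *Lhx6* is part of both values. *Nkx2-1*, the highest of these markers, had 1.03 (adjusted p = 0.191, edgeR) with no overlap of the genotypes. It was called higher with the run covariate and in libraries 10 to 13 alone. The part of these interneurons in the values of the BDNF-responsive list was not tested. The *Tac1* call was lost without control library 2 or 10 or mutant library 12 or 13 (adjusted p between 0.0685 and 0.151) and the *Dusp6* call without control library 2 or 11 or mutant library 12 (between 0.0504 and 0.0589).

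The early response genes of that list were not called. *Arc*, *Egr2* and *Fos* were uneven among libraries of both genotypes. *Egr1* was uneven among the mutant libraries (7017 to 12154 normalized counts) and close in controls (10022 to 11870). *Homer1* was more even. *Arc*, an immediate early gene of the synapse, had 5977, 3572, 8946 and 6026 normalized counts in the control libraries and 5051, 7979 and 4437 in the mutant libraries, with a log2 fold change of -0.075 ± 0.299 (SE, 95% interval -0.76 to 0.61, adjusted p = 0.937). *Egr1* had a log2 fold change of -0.30, *Egr2* of -0.42, *Fos* of 0.44 and *Homer1* of 0.078, with adjusted p-values between 0.409 and 0.826. Their libraries overlapped between the genotypes, in contrast to *Bdnf*, *Vgf* and *Npy*. The difference between these genes and *Bdnf* was not itself tested.

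**Figure D4:**
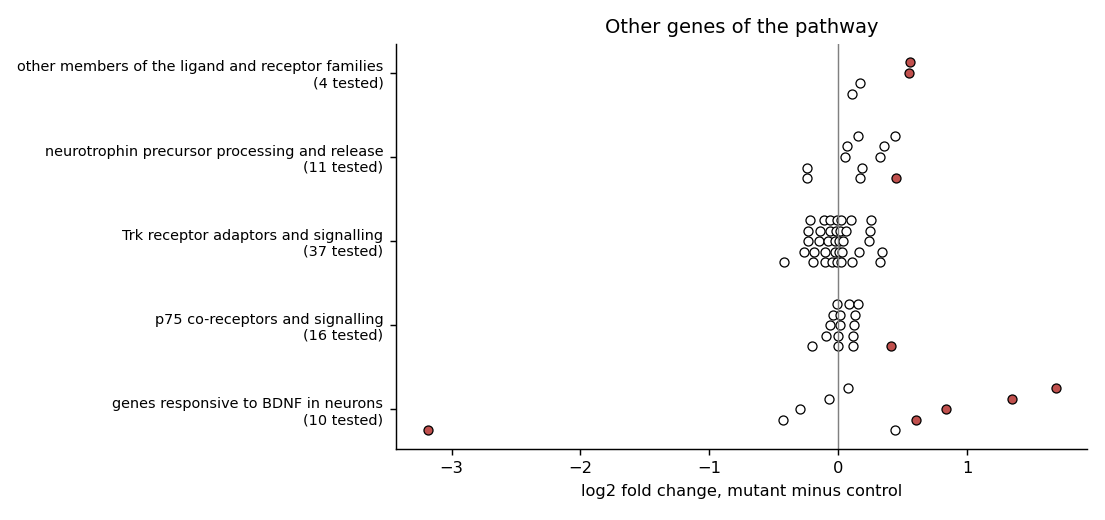
Log2 fold change, mutant minus control (x axis), of every tested gene of the 5 pathway lists, 1 point a gene, filled where called (adjusted p of at most 0.05). The points far from 0 are the BDNF-responsive genes *Sst* at -3.19, *Npy* at 1.69 and *Vgf* at 1.35, while the 37 Trk adaptors and kinases lie between -0.42 and 0.34.

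*Bdnf* and *Sorcs3* were called under all 19 alternative fits, with log2 fold changes between 1.98 and 2.23 and between 0.92 and 1.11. In 1 of these fits, libraries 2, 3 and 5 alone, the spread came from the 2 controls, and the single mutant library was assumed to vary like them. The genes whose values ran most closely with *Bdnf* over the 7 libraries, among 13449 genes with a mean of at least 100 normalized counts, included *Ptprk*, *Cck*, *Adcyap1*, *Pam*, *Masp1*, *Crtac1*, *Tiam2*, *A2m* and *Dtl*, with Pearson correlations of log2 CPM from 0.995 down to 0.992. Those closest to *Sorcs3* were *Bmp3*, *Atp2c2*, *Ecm1*, *Tgfbi* and *Sesn2*, from 0.998 down to 0.993. The libraries form 2 genotype groups, so these correlations describe mostly the step between the genotypes.

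**Figure D5:**
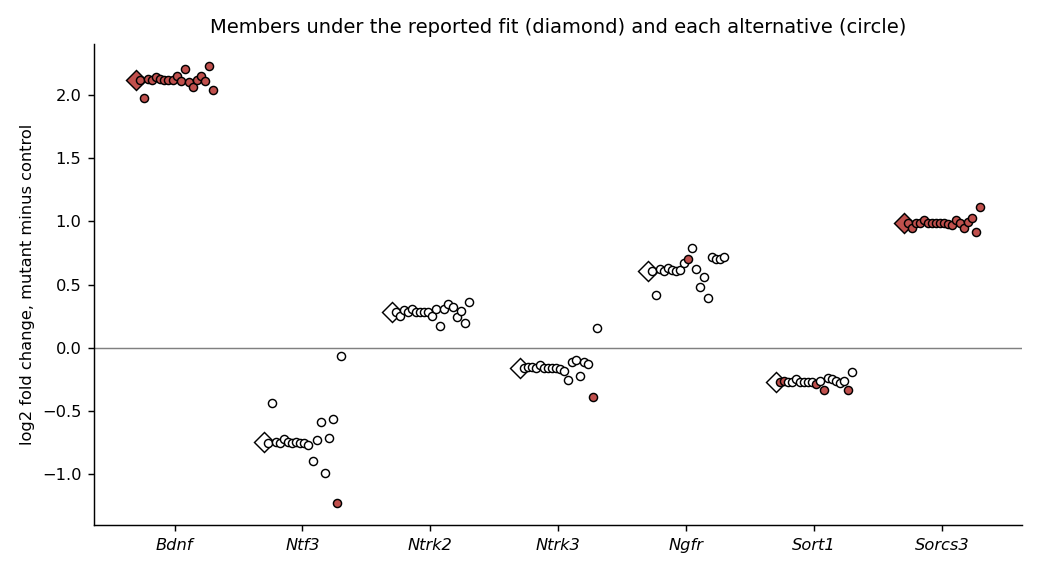
Log2 fold change, mutant minus control (y axis), of the 7 members tested, under the reported fit (diamond) and each of 19 alternative fits (circles: other tools, normalizations, filters, the run covariate, each library left out, and each run alone), filled where the adjusted p is at most 0.05. *Bdnf* stays between 1.98 and 2.23 and *Sorcs3* between 0.92 and 1.11, while *Ntf3*, *Ntrk3*, *Ngfr* and *Sort1* are filled under some alternatives only.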

How the data were processed

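Total RNA of forebrain pools was made into TruSeq libraries and sequenced on an Illumina GA IIx (36-base single reads). The authors trimmed reads with cutadapt 1.9.1, aligned them with Bowtie2 2.2.9 to the Ensembl release 84 transcriptome (GRCm38) and deposited RSEM 1.2.31 expected counts per gene, not normalized. Strand setting is not given in the sources used here. The deposited DESeq2 comparison (fold changes, p-values) gave gene symbols only. Unused columns of per-sample values numbered 0.

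Counts were rounded. After a filter (10 or more counts in 3 or more libraries), genes were TMM-normalized and tested between genotypes with edgeR 4.0.16 (R 4.3.3; quasi-likelihood F-test, no covariate, Benjamini-Hochberg over all genes tested, threshold 0.05). SE is |log2 fold change| divided by the root of F. FPKM used merged exons. Correlations used log2 CPM (prior count 2). The fit was tested on simulated counts. Alternatives included DESeq2 1.42.0 (size factors, Wald test) and limma-voom (limma 3.58.1). Same-genotype libraries differed beyond counting noise (chi-square 9.36 to 65.9 per degree of freedom, lowest for 10 with 11 and 12 with 13), and each was counted as 1 replicate, which does not tell separate pools from repeat preparations.

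Members, lists and alternatives were chosen with earlier results of these data known. Named genes were all members, *Lhx6*, every called pathway gene and each list's largest change in each direction, genes closest to *Bdnf* and *Sorcs3*, and markers given with their list. Other genes named (*Plat*, *Pcsk6*, *Gab2*, *Map2k1*, *Nradd*, the early response genes and *Gm12523*) were chosen after their values were seen. Some genes of the lists and of the closest genes are not reported here, and list counts leave them out.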

Additional observations from a re-analysis of the deposited data

Results flagged for a closer look

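*Sorcs3* per 100 *Sort1*, taken per length of exon, had 1 control library standing apart from the other controls. Control library 3 was at 12.3 and the other 3 were between 10.72 and 10.98, so that the gap between it and its nearest neighbour was 0.832 of the whole range, just above Dixon's 95% critical value for 4 samples. It was the only 1 of 24 control groups of values examined to pass, and chance alone passes about 1 in 20. The mutant libraries, at 25.8 to 28.4, were far above all controls, with or without that library.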

How the results depend on the processing

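No paired analysis was possible because the table's columns carry library numbers and not the replicate numbers of the labels. Over 19 alternatives, *Bdnf* (1.98 to 2.23 on the log2 scale) and *Sorcs3* (0.92 to 1.11) kept direction and call. *Sort1* passed with DESeq2 without and with its beta prior (-0.27, -0.26), with the run covariate (-0.28), in libraries 10 to 13 alone (-0.34) and without control library 3. *Ngfr* passed with the run covariate (0.70), and *Ntf3* (-1.23) and *Ntrk3* (-0.39) in libraries 10 to 13 alone, while *Ntrk3* reversed to 0.16 in libraries 2, 3 and 5 alone, where the lone mutant is assumed to vary like the controls. The cause was not tested. Leaving out 1 library gave -0.33 to -0.24 for *Sort1*, -0.99 to -0.57 for *Ntf3*, -0.25 to -0.097 for *Ntrk3* and 0.40 to 0.79 for *Ngfr*. Members called lower, 0 as reported, were 1 with DESeq2 without and with its prior, 1 with the run covariate, 3 in libraries 10 to 13, and 0 to 1 on leaving out 1 library. Pathway genes called higher, 8 as reported, were 2 in libraries 2, 3 and 5 and 2 to 7 on leaving out 1 library, and those called lower, 1 as reported, were 2 with DESeq2 without and with its prior and in libraries 10 to 13, 3 with the run covariate and 1 to 2 on leaving out 1 library. Over all genes, 585 were higher as reported, 1001 and 996 with DESeq2 without and with its prior, 1213 with the run covariate, 1084 in libraries 10 to 13, 204 in libraries 2, 3 and 5 and 223 to 589 on leaving out 1 library, and 369 were lower as reported, 733, 731, 992, 838, 104 and 79 to 382 in the same order. Depth limits *Ntf3*, *Ngfr* and above all *Ntf5*, which no count filter admitted.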

Other observations

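Other cell types were read from short marker lists, beside which the values of the neurotrophin genes may be set. Of 9 markers of cortical excitatory neurons, the main source of cortical *Bdnf*, *Rorb* alone was called by edgeR without a covariate and by limma-voom, as lower, with a median log2 fold change of -0.11 and a summed level of 5084 to 6566 CPM in controls and 5003 to 5781 CPM in mutants. DESeq2 and libraries 10 to 13 alone also called *Camk2a* lower, and the run covariate *Camk2a* and *Emx1*. *Camk2a* was the lowest of the list (log2 fold change -0.49, no overlap of the genotypes). *Slc17a7*, the highest, went the other way, also with no overlap (log2 fold change 0.25, adjusted p = 0.203, edgeR), and was not called. Of the 9 markers, 2 had a positive and 7 a negative log2 fold change. Of 8 markers of hippocampal cells, *Fibcd1*, a gene of pyramidal cells, alone was called by edgeR without a covariate. It fell from 1604 ± 184 normalized counts (SD, n = 4) to 600.4 ± 48.2 (SD, n = 3). Its log2 fold change was -1.42 (adjusted p = 0.000581, edgeR). DESeq2 also called *Dsp* lower (log2 fold change -0.96 by edgeR) and *Trpc6* higher (0.61 by edgeR, no overlap of the genotypes). The run covariate also called *Trpc6* higher, and libraries 10 to 13 alone *Dsp* lower. The summed level of the list stayed at 269 to 341 CPM in controls and 267 to 332 CPM in mutants. Of 8 striatal projection neuron markers, *Penk*, the enkephalin precursor, alone rose by edgeR without a covariate, from 3067 ± 842 normalized counts to 7027 ± 924 (adjusted p = 0.0130), with summed levels of 468 to 708 and 650 to 945 CPM. Of 8 oligodendrocyte markers, *Mbp*, *Mag* and *Cnp*, all myelin genes, fell by edgeR without a covariate (5 with DESeq2, 7 with the run covariate or in libraries 10 to 13 alone), and all 8 had a negative log2 fold change, with summed levels of 6659 to 8538 CPM in controls and 4777 to 5859 CPM in mutants.

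No marker of microglia (7 tested), endothelial and mural cells (8), leptomeningeal fibroblasts (8) or choroid plexus (6) was called by edgeR without a covariate or by limma-voom. At an unadjusted p-value under 0.05, 2 microglial markers and 1 choroid plexus marker were lower and 6 endothelial and mural and 3 leptomeningeal markers higher, and DESeq2 called 4 endothelial and mural and 2 leptomeningeal markers higher. With the run covariate edgeR called 6 endothelial and mural markers (*Cdh5*, *Cldn5*, *Pdgfrb*, *Pecam1*, *Rgs5* and *Tek*) and *Foxc1* higher and *P2ry12* lower, and in libraries 10 to 13 alone the same 6 endothelial and mural markers higher. In libraries 2, 3 and 5 alone *Ttr*, a choroid plexus gene, was called lower. Summed levels of the endothelial and mural list were 322 to 374 CPM in controls and 407 to 478 CPM in mutants. The part of these cell types in the values of *Bdnf*, *Sorcs3* and the other members was not tested.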
